A study of Mus musculus with 12 samples.

Results

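DNA methylation and clonal hematopoiesis regulators were followed here as 9 genes, Dnmt1, Dnmt3a, Dnmt3b, Tet1, Tet2, Tet3, Asxl1, Ezh2 and Kmt2a, which were found by symbol among the 20792 genes listed for every library. All 9 were present, each on 1 row, and all 9 passed the filter on low values in every comparison. The rule that finds them uses their symbols only. The cells were hematopoietic stem and progenitor cells (HSPCs), the bone marrow cells that give rise to all blood lineages, sorted from WT mice by c-kit and Sca-1 on the surface and by the lack of CD127 and lineage markers.

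The mice received a normal diet (ND) or a high salt diet (HSD) for 8 weeks from an age of 6 weeks, with 0.5% NaCl in the ND chow, 8% NaCl in the HSD chow and 1% NaCl in the water of HSD mice. HSPCs were taken without further treatment (ND and HSD) or on day 7 after intracerebral hemorrhage (ICH), a stroke model in which blood is injected into the brain (ND ICHD7 and HSD ICHD7). All mice were given ND after ICH, so that HSD ICHD7 mice ate HSD only before it. Each of the 4 groups had 3 libraries. Each ND or HSD library was pooled from 3 animals, and no number of animals was found for the ICH groups, so p-values measure the spread between libraries.

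DNA methyltransferases add a methyl group to cytosine, mostly where C is followed by G. DNMT1 copies the mark to the new strand after replication, and DNMT3A and DNMT3B set it at new sites. TET1, TET2 and TET3 oxidize the methyl group, which is a step in its removal. ASXL1 is a partner of the BAP1 deubiquitinase that acts on histone H2A, EZH2 is the catalytic subunit of Polycomb repressive complex 2 (PRC2), which methylates H3K27, and KMT2A (MLL1) methylates H3K4 and sustains HOX gene expression in blood stem cells. DNMT3A, TET2 and ASXL1 are the genes most often mutated in human clonal hematopoiesis, in which the descendants of a single mutated stem cell expand in the blood. RNA levels as measured here report neither mutation nor enzyme activity.

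In ND HSPCs after ICH, 5 of the 9 regulators fell, namely Dnmt1, Dnmt3a, Dnmt3b, Ezh2 and Kmt2a, where 3.23% of all genes tested were called lower and 16.7% in either direction. The count was 0 when libraries were scaled by their totals, when only genes above 10 CPM were tested and without any of 4 of the 6 libraries, while the direction of the 5 genes held in each of these. To show the regulatory DNA of these 5 genes, stretches of 125 to 150 bases before a RefSeq start site (GRCm38.p6, gene strand, 5' to 3', outside annotated exons) are given with each CG dinucleotide, the site that DNA methyltransferases act on, in capitals. Each stretch lies at or near the start, 29 bases before it for Ezh2 and 8 for Kmt2a. For Dnmt1 and Dnmt3a it lies before another start than that of the window richest in CG, described below. The intervals are chr9:20952980-20953129 (-) for Dnmt1, chr12:3806830-3806979 (+) for Dnmt3a, chr2:153649299-153649448 (+) for Dnmt3b, chr6:47595059-47595183 (-) for Ezh2 and chr9:44881297-44881446 (-) for Kmt2a.
Dnmt1: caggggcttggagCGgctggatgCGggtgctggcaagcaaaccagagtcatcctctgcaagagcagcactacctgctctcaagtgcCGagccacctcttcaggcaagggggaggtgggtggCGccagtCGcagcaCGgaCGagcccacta
Dnmt3a: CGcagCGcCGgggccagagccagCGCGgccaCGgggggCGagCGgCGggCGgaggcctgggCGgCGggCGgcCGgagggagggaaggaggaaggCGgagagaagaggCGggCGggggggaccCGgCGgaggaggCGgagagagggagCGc
Dnmt3b: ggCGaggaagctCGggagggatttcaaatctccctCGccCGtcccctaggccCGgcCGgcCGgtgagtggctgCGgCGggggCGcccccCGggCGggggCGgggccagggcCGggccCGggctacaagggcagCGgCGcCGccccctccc
Ezh2: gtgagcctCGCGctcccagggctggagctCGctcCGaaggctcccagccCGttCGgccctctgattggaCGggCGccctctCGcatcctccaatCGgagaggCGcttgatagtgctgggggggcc
Kmt2a: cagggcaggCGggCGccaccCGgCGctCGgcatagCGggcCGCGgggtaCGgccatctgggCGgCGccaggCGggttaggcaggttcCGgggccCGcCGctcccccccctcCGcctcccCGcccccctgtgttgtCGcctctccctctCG

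These stretches held 7, 21, 18, 11 and 19 CG dinucleotides in the order given. In windows of 300 bases around RefSeq starts (250 before, 50 after), the 9 genes had 13 windows, and the median over all 32851 windows was 7 CG dinucleotides. The window richest in CG held 57 for Tet2, 47 for Dnmt3a, 36 for Kmt2a, 33 for Dnmt1, 31 for Ezh2, 30 for Dnmt3b, 22 for Tet3, 17 for Tet1 and 13 for Asxl1. Dnmt1 and Dnmt3a have 3 windows each, and those of Dnmt1 ranged from 2 to 33 CG. The Dnmt1 stretch shown comes from its window with 12 CG, as the window with 33 had only 84 bases before the start outside exons. The Dnmt3a stretch comes from its window with 46 CG. High CG content was shared by the genes that fell and by Tet2, which did not.

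The windows were also searched on both strands for E2F-type sites (TTTGGCGC, TTTCGCGC, TTTCCCGC or TTTGCCGC), a motif of genes used in DNA replication, and for CCAAT. An E2F-type match was present in 2.26% of all windows and, among the 9 genes, in a window of Dnmt1 with 2 matches and in that of Ezh2 with 1. CCAAT was present in 37.4% of all windows, and in windows of Dnmt1, Ezh2 and Tet3. None of the E2F-type matches lies in the stretches shown, and the Dnmt1 window with 12 CG had no match to either motif. These matches describe the letters of the windows only.

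The libraries held 8678304 to 27491973 reads in the listed genes. Values are CPM, read counts scaled to a common library size, here by TMM. Of the genes of the 2 surface proteins used to select the cells, Kit, which encodes c-kit, was at 329 to 487 CPM. Ly6a, which encodes Sca-1, was at 2.42 to 6.72 CPM. Cd34, which did not define the sorted cells, was at 215 to 392 CPM. Among 15 marrow macrophage genes the mean reached 32.8 CPM for ND replicate 1, 60.8 CPM for HSD replicate 2 and 2.69 to 9.94 CPM elsewhere. B lineage genes had list means of 1.18 to 2.27 CPM. Libraries without ICH had 1393 to 1755 listed genes without a read, against 2 to 29 in libraries after ICH, and this difference between the sets of libraries cannot be told apart from ICH. HSD ICHD7 replicate 3 was the deepest library and stood apart from its group in several of the 9 genes, as given below.

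All 9 genes were well covered, with group means of 983 to 8902 reads. Per kb of exon, the ND level was 65.7 CPM for Dnmt1, 32.2 for Kmt2a, 22.6 for Ezh2, 17.1 for Dnmt3b, 16.1 for Asxl1, 11.0 for Tet3, 7.88 for Dnmt3a, 5.79 for Tet1 and 4.97 for Tet2. In this order Dnmt3b and Asxl1 overlapped between libraries, as did Tet1 and Tet2. Dnmt1 thus had the highest level per length of the 9 genes, and Tet2 the lowest in ND. Exon length is the union over all annotated isoforms, which lowers the value of genes with many long isoforms.

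**Figure D1:**
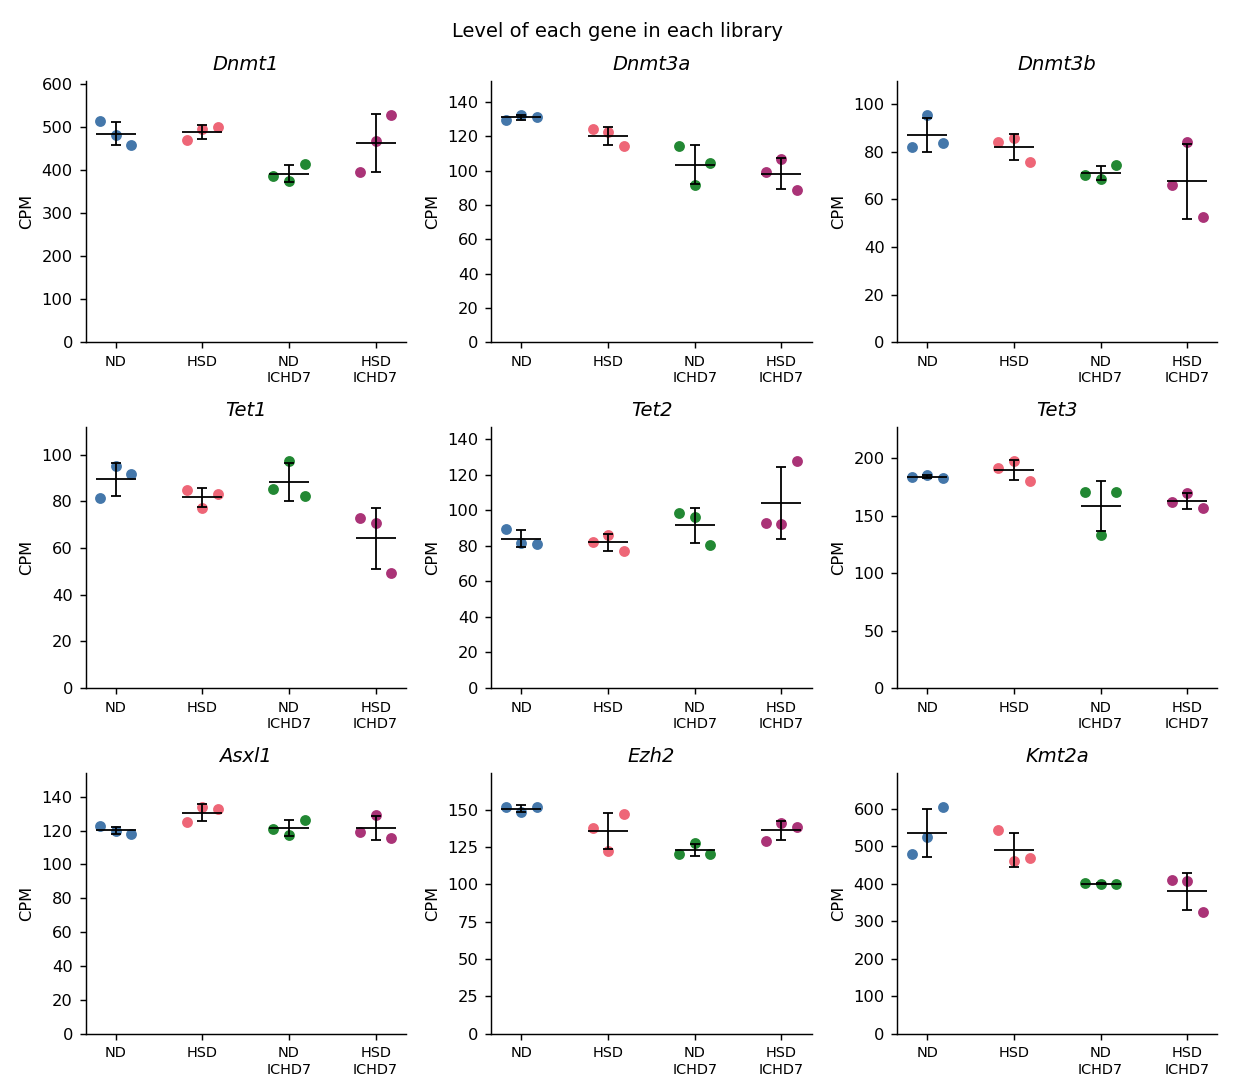
CPM (y axis, from 0) of each regulator in the 12 libraries (points, replicates 1 to 3 from left to right) of the 4 groups (x axis), with the mean (long bar) and SD (whiskers, n = 3). Dnmt1, Dnmt3a, Dnmt3b, Ezh2 and Kmt2a sit lower in ND ICHD7 than in ND without overlap, and Asxl1 lies between 116 and 134 CPM throughout.

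Among the methyltransferases, Dnmt1 (chr9:20907209-20959888, GRCm38) was at 514, 482 and 459 CPM in ND replicates 1 to 3 and at 387, 375 and 414 CPM in ND ICHD7. It was at 471, 495 and 500 CPM in HSD and at 395, 467 and 528 CPM in HSD ICHD7. All ND ICHD7 libraries lay below all ND and HSD libraries, while HSD ICHD7 overlapped every other group. Dnmt1 fell by 0.31 on the log2 scale in ND ICHD7 against ND (SE 0.0885, limma, adjusted p = 0.0404). The order of group means was HSD, ND, HSD ICHD7 and ND ICHD7, and each neighbour in it overlapped.

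Dnmt3a (chr12:3806007-3914443) was at 129, 132 and 131 CPM in ND and at 124, 123 and 114 CPM in HSD. After ICH it was at 114, 91.8 and 104 CPM on ND and at 99.0, 107 and 88.7 CPM on HSD. The tight ND libraries lay above all the others, and HSD overlapped ND ICHD7 by a narrow margin at 114 CPM. Dnmt3a fell by 0.34 in ND ICHD7 against ND (SE 0.0899, adjusted p = 0.0249). On HSD the difference after ICH was -0.30 (SE 0.0990, 95% confidence interval -0.52 to -0.07, unadjusted p = 0.0149, adjusted p = 0.126), without overlap.

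Dnmt3b (chr2:153649450-153687730) was at 81.9, 95.5 and 83.9 CPM in ND and at 84.4, 86.0 and 75.9 CPM in HSD. In libraries after ICH the gene was at 70.5, 68.4 and 74.5 CPM on ND and at 66.2, 84.1 and 52.6 CPM on HSD. ND ICHD7 lay below ND and HSD, while HSD ICHD7 spread across ND ICHD7 and HSD. Dnmt3b fell by 0.29 in ND ICHD7 against ND (SE 0.0847, adjusted p = 0.0442), the weakest of the 5 calls. With edgeR on the recovered reads its adjusted p was 0.0572, and with DESeq2 0.0937.

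Of the TET genes, Tet1 (chr10:62804570-62908996) was at 81.4, 95.1 and 91.8 CPM in ND and at 84.9, 77.2 and 83.4 CPM in HSD. ICH libraries held it at 85.2, 97.4 and 82.4 CPM on ND and at 72.7, 70.9 and 49.2 CPM on HSD. The HSD ICHD7 libraries were the 3 lowest of all 12, and the other groups overlapped. Tet1 differed by -0.47 between HSD ICHD7 and ND ICHD7 (SE 0.157, 95% confidence interval -0.82 to -0.12, unadjusted p = 0.0139), which did not pass adjustment over all genes (adjusted p = 0.263). Against HSD the difference was -0.37 (unadjusted p = 0.0347, adjusted p = 0.194). Without HSD ICHD7 replicate 3, the lowest library, the values were -0.29 and -0.19.

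Tet2 (chr3:133463679-133545139) was at 89.2, 81.6 and 80.7 CPM in ND and at 82.3, 86.0 and 77.0 CPM in HSD. After ICH it was at 98.2, 96.1 and 80.2 CPM on ND and at 92.5, 92.1 and 128 CPM on HSD. HSD ICHD7 lay above ND and HSD without overlap, and it overlapped ND ICHD7, which overlapped both. The difference of HSD ICHD7 from HSD was 0.33 (SE 0.134, 95% confidence interval 0.03 to 0.63, unadjusted p = 0.0357, adjusted p = 0.197). It was 0.18 without HSD ICHD7 replicate 3, the highest of the 12 libraries.

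Tet3 (chr6:83362373-83459084) was at 184, 185 and 183 CPM in ND and at 191, 198 and 180 CPM in HSD. In libraries after ICH the gene was at 171, 133 and 171 CPM on ND and at 162, 170 and 157 CPM on HSD. All 6 libraries after ICH lay below all 6 without it, and diets overlapped within each state. The difference was -0.23 on ND (95% confidence interval -0.46 to 0.00, unadjusted p = 0.0531, adjusted p = 0.183) and -0.22 on HSD (95% confidence interval -0.42 to -0.02, unadjusted p = 0.0354, adjusted p = 0.196), so that neither passed the test.

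Among the chromatin regulators, Asxl1 (chr2:153345829-153404007) was at 122, 120 and 118 CPM in ND and at 125, 134 and 133 CPM in HSD. ICH libraries held it at 121, 117 and 126 CPM on ND and at 119, 129 and 116 CPM on HSD. The HSD libraries lay above ND without overlap, by 0.12 (95% confidence interval -0.03 to 0.27, unadjusted p = 0.104, adjusted p = 0.770). Relative to its level, Asxl1 had the narrowest range of the 9 genes over the 12 libraries, and its ND ICHD7 to ND difference was 0.02 (95% confidence interval -0.14 to 0.18).

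Ezh2 (chr6:47530139-47595341) was at 152, 148 and 152 CPM in ND and at 138, 123 and 147 CPM in HSD. After ICH it was at 121, 128 and 121 CPM on ND and at 129, 141 and 138 CPM on HSD. ND stood above all other groups, and ND ICHD7 stood below HSD ICHD7 without overlap. Ezh2 fell by 0.29 in ND ICHD7 against ND (SE 0.0708, adjusted p = 0.0165), the smallest adjusted p of the 9 genes. On HSD the difference after ICH was 0.01 (95% confidence interval -0.22 to 0.23).

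Kmt2a (chr9:44803355-44881296) was at 480, 524 and 606 CPM in ND and at 543, 461 and 470 CPM in HSD. In libraries after ICH the gene was at 403, 400 and 400 CPM on ND and at 410, 408 and 323 CPM on HSD. As with Tet3, all libraries after ICH lay below all those without it. Kmt2a fell by 0.41 in ND ICHD7 against ND (SE 0.102, adjusted p = 0.0185), the largest change of the 9 genes in this comparison. On HSD the difference was -0.37 (SE 0.128, unadjusted p = 0.0167, adjusted p = 0.134), and -0.26 without HSD ICHD7 replicate 3.

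**Figure D2:**
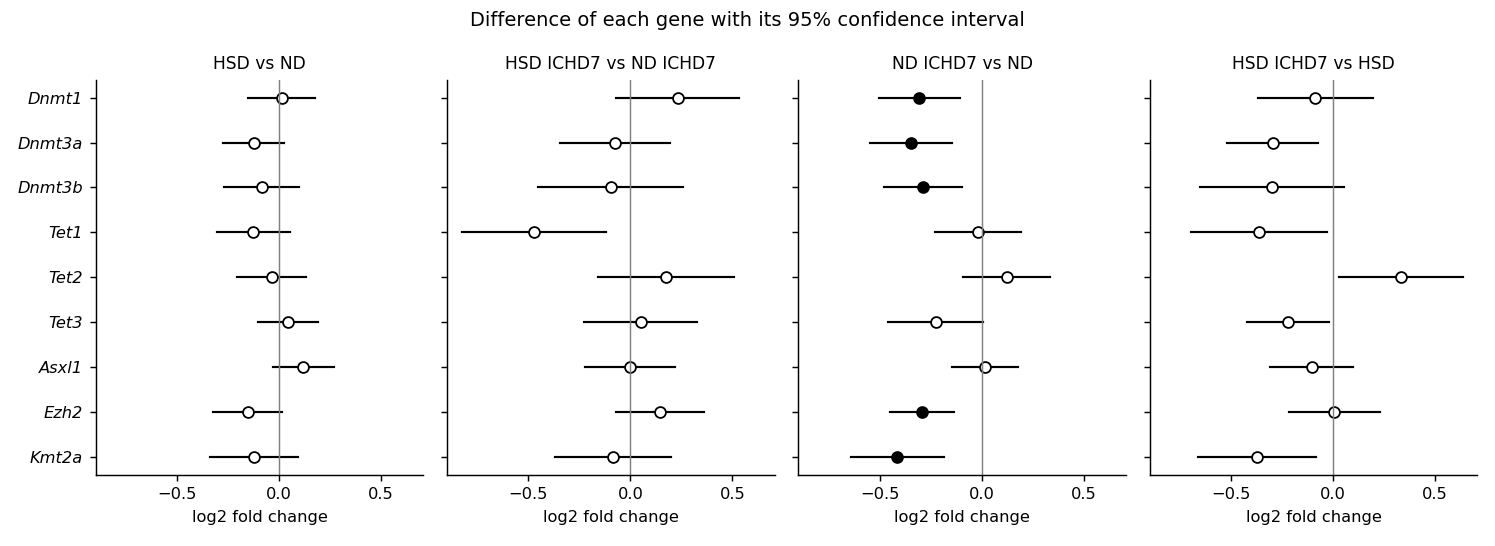
Log2 fold change (x axis, on log2(CPM + 0.5)) of each regulator in 4 comparisons (panels), with 95% confidence intervals of limma (lines). Filled points mark an adjusted p under 0.05, which occur only in ND ICHD7 vs ND, where the values run from -0.41 for Kmt2a to 0.12 for Tet2.

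The first comparison asked whether HSD changed the regulators without ICH. None of the 9 was called by limma at an adjusted p under 0.05, beside 0.0774% of the 16787 genes tested, and edgeR and DESeq2 called none either. At an unadjusted p under 0.05 the count was also 0, against 6.93% of genes. Dnmt3a and Ezh2 were lower and Asxl1 higher without overlap between diets, 3 of 9, where 12.8% of genes did not overlap. The 9 log2 fold changes lay between -0.15 and 0.12, with 95% confidence intervals from -0.34 to 0.27 at the widest, so that changes of the size of the study's threshold (1 on the log2 scale) lay outside every interval. For Ezh2 the difference was -0.15 (unadjusted p = 0.0733), and it was -0.08 without HSD replicate 2, a library high in macrophage genes.

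After ICH, the libraries of mice fed HSD beforehand were compared with ND ICHD7. None of the 9 genes was called by limma, edgeR or DESeq2, and limma called 0% of the 20079 genes tested, edgeR 0 genes and DESeq2 98. With all 12 libraries in 1 fit limma called 319 genes, and the adjusted p of Tet1 was 0.0781, so that it was not called there either. Tet1 alone had an unadjusted p under 0.05, where 15.6% of genes did. Tet1 was lower and Ezh2 higher without overlap, 2 of 9, beside 23.4% of genes. The difference of Ezh2 was 0.15 (95% confidence interval -0.07 to 0.36). For Dnmt1 it was 0.23 (95% confidence interval -0.07 to 0.53), and 0.13 without HSD ICHD7 replicate 3. The mean of the 12 HSPC marker genes was 160 CPM in that replicate, against 184 and 185 CPM in the other HSD ICHD7 libraries. The part of this difference in the Tet1 value was not tested. In bulk RNA, fewer cells of a type and less RNA per cell cannot be told apart.

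The comparison of ICH with no ICH on ND gave all the calls among the regulators. The 5 genes that fell were 5 of 9, beside the shares given above over the 19387 genes tested. Among the 10084 genes above 10 CPM in at least 3 samples, a range that includes all 9 regulators, 5.72% were called lower in the same fit. All 5 also had an unadjusted p under 0.05, as did 28.4% of genes. With Tet3, 6 of 9 did not overlap between groups, all of them lower after ICH, beside 33.4% of genes. The median of the 9 log2 fold changes was -0.29, beside 0.01 over all genes tested and -0.08 over genes above 10 CPM. The 5 calls depend on the scaling and on the set of genes tested. Cell type markers also differed in this comparison. Of 15 macrophage markers 13 were below 0 (median -0.91), with 4 lower at an unadjusted p under 0.05 and 1 called higher. Of 12 HSPC markers 11 were below 0 (median -0.14), and of 8 erythroid markers 6 were (median -0.33), with none called in either list. Of 11 mature neutrophil markers 4 were below 0 (median 0.07), and 1 was called lower. The 6 tested B lineage markers had a median of 0.51. Means over that whole list were 1.28 to 1.45 CPM in ND and 1.55 to 2.27 CPM in ND ICHD7. Only 2 of 8 T and NK markers were listed, with a median of 0.79 and 1 called higher. Klrb1c was at 0.38 to 0.56 CPM in ND and 1.64 to 2.69 CPM in ND ICHD7, and Nkg7 at 23.0 to 28.2 and 29.0 to 32.3 CPM. Higher values at such low levels as that of Klrb1c cannot be told apart from the reads that libraries after ICH have in nearly every listed gene. The part of these markers in the 5 calls was not tested. Counts without the library highest in macrophage genes among these 6, ND replicate 1, are given beside the plot by way of processing. None of the 5 was called when libraries were scaled by their totals, by RLE factors over genes above 10 CPM, or when only the genes above 10 CPM were tested, with fold changes of -0.21 to -0.41.

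On HSD, the same step from no ICH to ICH gave no call by limma, edgeR or DESeq2, while limma called 6.58% of the 18082 genes tested. Dnmt3a, Tet1, Tet3 and Kmt2a were lower and Tet2 higher at an unadjusted p under 0.05, 5 of 9, beside 21.5% of genes. The same 5 genes did not overlap between groups, beside 28.7% of genes. Dnmt1 and Ezh2, which fell on ND, differed here by -0.09 (95% confidence interval -0.37 to 0.19) and 0.01. Without HSD ICHD7 replicate 3, the value of Dnmt1 was -0.19. In HSPC marker genes, 8 of 12 were lower at an unadjusted p under 0.05 in this comparison (median -0.49). Of 11 mature neutrophil markers, 3 rose and 1 fell, and the unadjusted p was under 0.05 for 7 with higher values (median 0.69), with list means of 6.36 to 7.34 CPM in HSD and 7.35 to 8.92 CPM in HSD ICHD7. Macrophage markers had a median of -1.33 with none called. Their list mean was 60.8 CPM in HSD replicate 2, but 6.76 and 5.08 CPM in HSD replicates 1 and 3. In HSD ICHD7 it was 2.69 to 9.30 CPM. The part of these genes in the values above was not tested.

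Whether the diet effect differed between the ICH states was tested as an interaction over all 12 libraries. None of the 9 regulators was called by limma, edgeR or DESeq2, as was the case for 0% of the 20393 genes in limma. Ezh2 alone had an unadjusted p under 0.05 (difference 0.30, SE 0.116, unadjusted p = 0.0213, adjusted p = 0.541), where 8.35% of genes did. For Tet1 it was -0.35 (unadjusted p = 0.0821) and for Dnmt1 0.22 (unadjusted p = 0.169), and without HSD ICHD7 replicate 3 these were -0.17 and 0.12. The calls on ND and their absence on HSD are thus not shown to differ. These comparisons share libraries, so their values are given side by side only.

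**Figure D3:**
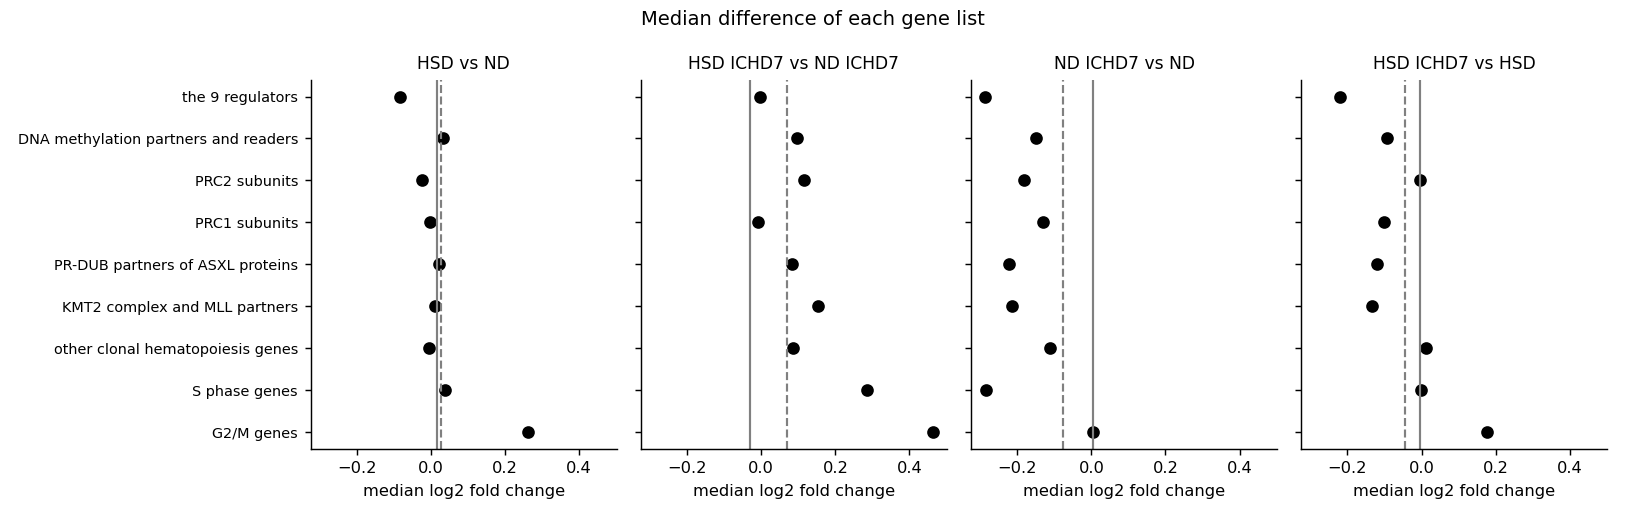
Median log2 fold change (x axis) of the 9 regulators and of 8 gene lists (y axis) in 4 comparisons (panels), beside the median of all genes tested (solid line) and of genes above 10 CPM (dashed line). In ND ICHD7 vs ND the regulators (-0.29) and S phase genes (-0.28) lie lowest, and G2/M genes lie at 0.00.

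The regulators' partners were examined as lists, some of which share genes. In ND ICHD7 against ND, of 24 DNA methylation partners and readers 1 fell and none rose, with a median of -0.15. The counts of this and the next lists stand beside the 3.23% of all genes, or 5.72% of genes above 10 CPM, that were called lower, so that 1 call in a list is near the background. These calls also depend on the processing, and with only genes above 10 CPM tested none of the partner lists had a call. The methylation partner that fell was Uhrf1, which brings DNMT1 to newly replicated DNA. It was at 196 ± 17.5 CPM in ND and 135 ± 24.0 CPM in ND ICHD7 (SD, n = 3), a fall by 0.55 (SE 0.130, adjusted p = 0.0141). Uhrf1 was at 201 ± 17.7 CPM in HSD and 176 ± 23.2 CPM in HSD ICHD7. Dnmt3l, a cofactor of the de novo methyltransferases without activity of its own, was at 0.522 CPM on average in ND and 1.32 CPM in ND ICHD7 (unadjusted p = 0.00872, adjusted p = 0.0515). A higher value at so low a level cannot be told apart from the reads that libraries after ICH have in nearly every listed gene.

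Of 11 PRC2 subunits besides Ezh2, 1 fell in this comparison (median -0.18). This was Eed, a core subunit that reads H3K27 methylation, at 38.9 ± 1.18 CPM in ND and 31.0 ± 1.36 CPM in ND ICHD7 (adjusted p = 0.0234). No PRC2 subunit was called with DESeq2, with either scaling by totals or RLE over genes above 10 CPM, or without any library but ND replicate 1. Suz12, the third core subunit, differed by -0.24 (adjusted p = 0.0671). After ICH, Suz12 was at 86.9 CPM on ND and 107 CPM on HSD (difference 0.29, SE 0.110, unadjusted p = 0.0250, adjusted p = 0.280). Phf19, an accessory subunit, was at 11.8 ± 0.201 CPM in ND, 10.1 ± 0.519 in HSD, 8.90 ± 1.44 in ND ICHD7 and 13.3 ± 0.745 in HSD ICHD7. Its interaction of diet and ICH was 0.77 (SE 0.187, unadjusted p = 0.00108, adjusted p = 0.445), and that of Suz12 was 0.42 (unadjusted p = 0.0118, adjusted p = 0.528). Suz12 and Phf19 are named for the smallest interaction p of the list, and 3 of the 11 subunits had an interaction below 0.

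Of 19 PRC1 subunits, 1 fell in ND ICHD7 against ND (median -0.13). It was Cbx6, a Polycomb chromodomain protein, at 66.8 ± 7.43 CPM in ND and 46.1 ± 7.82 CPM in ND ICHD7 (adjusted p = 0.0187). Cbx7, a reader of H3K27 methylation, fell on HSD, from 25.1 ± 2.98 CPM to 16.7 ± 1.83 CPM after ICH (adjusted p = 0.0393). Cbx7 was the only PRC1 gene called in that comparison. There 228 of all 18082 genes tested were called lower, or 2.09% of genes above 10 CPM, so that 1 call is near the background. Whether this call held under other ways of processing was not examined.

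PR-DUB is the H2A deubiquitinase complex that ASXL proteins form with BAP1. Of 9 PR-DUB partners, 3 fell and 1 rose in ND ICHD7 against ND (median -0.22). Mbd6, a BAP1 complex subunit, was at 96.6 CPM in ND and 66.1 CPM in ND ICHD7, a fall by 0.56 (SE 0.129, adjusted p = 0.0127). The gene that rose, Asxl3, was at 0.0423 CPM on average in ND and 2.00 ± 0.452 CPM in ND ICHD7, and libraries after ICH have reads in nearly every listed gene. Asxl3 was the only PR-DUB partner called after ICH on HSD, where 6.58% of all genes were called, and none was called between diets.

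Of 22 KMT2 complex and MLL partners, 7 fell and none rose in ND ICHD7 against ND (median -0.21). Dot1l, the H3K79 methyltransferase, was at 118 ± 5.85 CPM in ND and 89.8 ± 11.4 CPM in ND ICHD7 (adjusted p = 0.0198), and Paxip1, a subunit of the KMT2C and KMT2D complexes, was at 79.4 ± 3.57 and 60.7 ± 3.85 CPM (adjusted p = 0.00750). On HSD none of the 22 was called after ICH. Kdm6b, an H3K27 demethylase, differed most by p, with 75.7 ± 7.89 CPM in HSD and 55.0 ± 6.70 CPM in HSD ICHD7 (adjusted p = 0.0616).

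Of 46 other clonal hematopoiesis genes, 4 fell and 1 rose in ND ICHD7 against ND (median -0.11). Bcorl1, a transcriptional corepressor, was at 49.6 ± 0.888 CPM in ND and 39.2 ± 1.41 CPM in ND ICHD7 (adjusted p = 0.0123), and Chek2, a DNA damage checkpoint kinase, was at 25.8 ± 1.05 and 19.3 ± 1.08 CPM (adjusted p = 0.0131). Idh1, which makes the 2-oxoglutarate that TET enzymes need, was at 20.3, 33.4 and 26.5 CPM in HSD and at 45.5, 34.7 and 93.7 CPM in HSD ICHD7, highest in replicate 3 (adjusted p = 0.114). Flt3, a cytokine receptor of progenitors, was at 233, 296 and 289 CPM in ND ICHD7 and at 220, 201 and 116 CPM in HSD ICHD7, lowest in replicate 3 (unadjusted p = 0.0167, adjusted p = 0.267).

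Between diets, none of these partners was called, either without ICH or after it. Without ICH, the smallest p of the partner lists were those of Srsf2, a splicing factor, at 202 ± 9.84 CPM in ND and 236 ± 11.3 CPM in HSD (unadjusted p = 0.00861, adjusted p = 0.526), and Mbd1, a reader of methylated DNA, at 48.4 ± 2.18 and 56.9 ± 4.18 CPM (unadjusted p = 0.0178, adjusted p = 0.611). After ICH it was that of Cbx7, at 23.8 ± 1.33 CPM on ND and 16.7 ± 1.83 CPM on HSD (unadjusted p = 0.00294, adjusted p = 0.242). The partner lists had medians of -0.03 to 0.03 without ICH, close to the 0.02 of all genes, and the 9 regulators had -0.08. After ICH the partner lists had medians of -0.01 to 0.15, against 0.00 for the regulators, -0.03 for all genes and 0.07 for genes above 10 CPM.

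Because Dnmt1, Uhrf1 and Ezh2 are known to be used most in dividing cells, cell cycle genes were set beside them. Of 40 S phase genes, 11 fell and none rose in ND ICHD7 against ND, and all 40 values were below 0 (median -0.28). The S phase mean was 81.6 to 94.4 CPM in ND libraries, 84.3 to 90.3 in HSD, 68.0 to 76.4 in ND ICHD7 and 75.9 to 97.3 in HSD ICHD7. The ND ICHD7 libraries were thus lower than ND and HSD in S phase genes as they were in Dnmt1. Of 40 G2/M genes, none was called in that comparison, and their median was 0.00. In HSD against ND, 2 G2/M genes rose (median 0.26), and the unadjusted p was under 0.05 for 30 genes, all with higher values, but for no S phase gene. In HSD ICHD7 against ND ICHD7 no gene of either list was called. At an unadjusted p under 0.05, 36 of 40 G2/M genes (median 0.46) and 14 of 40 S phase genes (median 0.29) were higher. Of all 20079 genes tested there, 1089 were higher at that threshold. In that comparison Dnmt1 differed by 0.23, Uhrf1 by 0.39 and Ezh2 by 0.15, none of which passed adjustment. The part of the cell cycle in the values of Dnmt1, Uhrf1 and Ezh2 was not tested.

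Within ICH states, the genes most like each regulator over the 12 libraries were found by Pearson r, after the mean of each state was subtracted, over 10116 genes. They are a description, and the points share depth and scaling. For Dnmt1 they were Atp5a1 and Rbmxl1 (both r = 0.98), for Dnmt3a Gba2 (0.90) and Lrfn1 (0.87), and for Dnmt3b Rragb (0.93) and Rnf220 (0.92). For Tet1 they were Mcoln2 and Mir1894 (both 0.97), for Tet2 Mppe1 and Papss2 (both 0.96), and for Tet3 Smarcd3 and Map4k1 (both 0.96). For Asxl1 they were Bmyc (0.93) and Aldh16a1 (0.92), for Ezh2 Ing3 (0.92) and Alg10b (0.90), and for Kmt2a Tnrc6b (0.96) and Nfkbie (0.95). No regulator was among the most alike genes of another. Between regulators, r was highest for Dnmt3a and Dnmt3b (0.71) and lowest for Dnmt1 and Tet1 (-0.89), which were the highest and the lowest of their own 3 libraries in HSD ICHD7 replicate 3.

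Reads of 4 regulators may be shared with listed genes on the other strand, namely Dnmt3aos for Dnmt3a, B230319C09Rik for Tet3, 2500004C02Rik for Asxl1 and Gm26625 for Ezh2. The kit marks strand, but the strand setting of the counting was not given in the sources used here, so that such reads cannot be told apart.

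**Figure D4:**
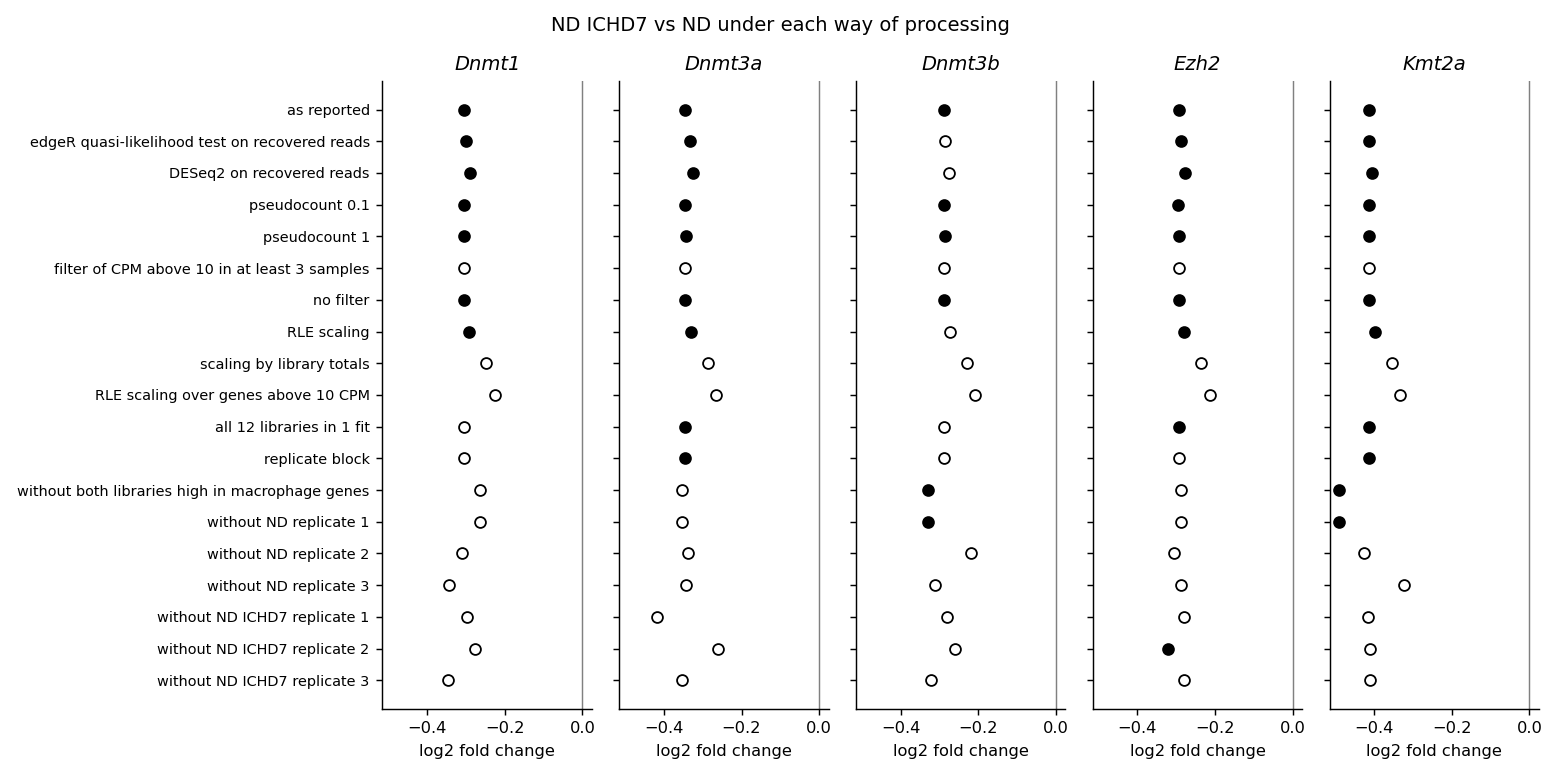
Log2 fold change (x axis) in ND ICHD7 vs ND of the 5 genes that fell (panels) under each way of processing (y axis), filled where the adjusted p was under 0.05. Every value lies below 0, between -0.49 and -0.21, while the calls come and go.

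The plot by way of processing shows that the direction of these 5 genes did not depend on a library or a setting among those run, and that their calls did. Leaving out any of the 6 libraries left at most 2 of the 5 calls, with 2 without ND replicate 1 (Dnmt3b and Kmt2a), 1 without ND ICHD7 replicate 2 (Ezh2), and 0 without ND replicate 2, ND replicate 3, ND ICHD7 replicate 1 or ND ICHD7 replicate 3.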

How the data were processed

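HSPCs of 4 groups were sequenced in 3 libraries each. Rsubread served the authors for alignment to mm10 and featureCounts for counting, and they deposited CPM scaled by TMM with edgeR 3.24.3. Deposited values came in whole steps of 1 read (tolerance 0.01 read), which gave the reads. In every library 100% of the values above 0 were whole. Positions and exon lengths come from GENCODE M21 (GRCm38), promoter windows from RefSeq (GRCm38.p6).

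Groups were compared by limma 3.58.1 (R 4.3.3) with a variance trend on log2(CPM + 0.5), in fits of 6 libraries, leaving out genes that did not reach 10 reads in 3 or more of them. A gene was called, and is said to have risen or fallen, at a Benjamini-Hochberg adjusted p under 0.05 over all genes tested. Fold changes are on that log2 scale. The interaction used all 12 libraries. edgeR 4.0.16 and DESeq2 1.42.0 were run on recovered reads as alternatives, beside other pseudocounts, filters and scalings, a replicate block and leaving out each library. RLE scaling over genes above 10 CPM was added after the data were seen. The limma, edgeR and DESeq2 tests of each comparison were also run on simulated reads. The other pseudocounts, filters and scalings, the block and the fits with added or left-out libraries were not.

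The regulators and lists were chosen with earlier results of these data known. Named besides the 9 regulators were the 2 genes of each partner list with the smallest p in each comparison, not all of which are reported here, and the 2 most like each regulator (Gm and Rik clones and pseudogenes left out). Replicate numbers were not treated as pairs. Precision is limited by 3 libraries per group.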

Additional observations from a re-analysis of the deposited data

Results flagged for a closer look

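Ezh2 was looked at again because its diet effect had opposite signs in the 2 ICH states, without overlap between diets in either. HSD libraries lay below ND without ICH (difference -0.15), and HSD ICHD7 libraries lay above ND ICHD7 (difference 0.15). The difference between these effects was 0.30 on the log2 scale (SE 0.116, 95% confidence interval 0.05 to 0.55), with an unadjusted p of 0.0213 and an adjusted p of 0.541 by limma, so that it did not pass adjustment over all genes. Without HSD replicate 2, which was high in macrophage genes and lowest of its group in Ezh2, it was 0.23. Groups of 3 libraries were too small for a search for single outlying libraries.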

How the results depend on the processing

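The count of 5 regulators that fell in ND ICHD7 against ND was 5 with pseudocounts of 0.1 and 1 and without a filter, and 4 with edgeR, DESeq2 and RLE scaling, where Dnmt3b was lost. It was 3 with all 12 libraries in 1 fit, 2 with a replicate block, 2 without both libraries high in macrophage genes, and 0 when only genes above 10 CPM in 3 or more samples were tested, with scaling by library totals and with RLE scaling over genes above 10 CPM, the last added after the data were seen. Leaving out 1 library gave 0 to 2. The filter changed no fold change of the regulators, but it changed the genes over which variances were fitted and p was adjusted. The cause of the losses was not tested. Under it 54 genes were called higher and 68 lower, against 2619 and 626 as reported, and under scaling by totals 2748 and 303. The counts of 0 in the other 4 comparisons were 0 under each alternative run, and no called regulator reversed. Of 7 KMT2 partners that fell, 1 was called under either scaling alternative and 0 under the filter, and of 11 S phase genes 6 and 1. Under the filter no gene of the other partner lists was called, and PRC2 had 0 calls under either scaling and the block. Leaving out 1 library gave 0 to 1 genes called lower for PRC2, the DNA methylation partners and PR-DUB, and 0 to 2 for PRC1. It gave 0 to 4 for the KMT2 partners, 0 to 7 for S phase genes and 0 to 4 for the other clonal hematopoiesis genes. Libraries with the same replicate number had correlations of -0.191 to 0.0943 after group means were removed, so that the numbers do not pair them, and the block gave no call in the other comparisons. The 9 regulators had 718 or more reads in every library, so that precision is limited by 3 libraries per group.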
